A study of Euphorbia esula with 15 samples.

Results

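Transcripts of the core histones and the linker histone H1 were followed in crown buds of leafy spurge (Euphorbia esula) after shoot removal. The members were chosen by name. A contig belonged to the set when its best protein hit came from a green plant, contained "histone H" and named no modifying enzyme, kinase, chaperone or binding protein. This gave 134 contigs in 61 of the 223732 components of the assembly, a component being the group of related contigs that stands for a gene. The contigs of each component were summed, and 25 members whose mean normalized count exceeded 5 at any time point were kept, 7 of H1, 7 of H2A, 2 of H2B, 6 of H3, 2 of H4 and 1 whose hit was named only histone H2. A normalized count is an expected count divided by the size factor of its library. The 25 members carried 99.9% of the counts of the set. Of the 36 components left out, 16 had no count in any library, the highest time point mean was 4.32, and 19 had the same protein hit as a kept member. The lowest peak mean among the kept members was 6.04.

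Histones package DNA into nucleosomes. H2A, H2B, H3 and H4 form the core particle, and H1 binds the DNA that enters and leaves it. Cells that copy their genome need new core histones, so canonical histone genes are mostly transcribed in S phase, whereas variants such as H2A.Z and H3.3 can be placed in chromatin outside replication. Plant histone mRNAs carry poly(A) tails, so that poly(A) selection retains them.

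The buds form underground on the crown and stay paradormant, held back by the shoot, until it is removed. Buds of cultivar 1984-ND001 were taken from plants kept at 27 °C under a 16 h photoperiod, with the shoot intact until harvest (0 h, 3 libraries) or 6 h, 24 h or 72 h after its excision (4 libraries each). No glyphosate was applied to any of them, and every library pooled buds of many plants of this 1 biotype, so p-values measure the spread between pools. Sampling was timed to the same hour of the day, and all 15 libraries shared a sequencing lane. The sample labels give plant ages of 3 and 4 months, and age was not used here.

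Library totals ran between 1847115 and 8766393 expected counts, and Spearman correlations between replicates between 0.969 and 0.985. Contigs whose hit was labelled neither green plant, alga nor unidentified held 0.609 to 0.679% of the counts at 0 h and 6 h. They held 0.754 to 1.02% at 24 h and 72 h. Contigs with no hit, or labelled 0 or removed, were not counted here, whereas those labelled NA were. Of 5 shoot meristem marker genes, 4 had a tested component (STM, KNAT1, CLV1 and ANT), whereas none of the 4 root markers did. The 0 h libraries stood apart from each other in histones. The sum over all members was 14948, 17456 and 13202 normalized counts in 0 h replicates 1, 2 and 3, and the shallowest library was the highest of its time point at 0 h, 24 h and 72 h and the lowest at 6 h. The part that depth played in the histone levels was not tested.

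The names were checked against the best Arabidopsis hit of each member. All 18 core members had a histone gene as that hit, and the member named only histone H2 (comp107903_c0) had the H2B gene AT5G59910. Among the 7 H1 members only 3 had an H1 gene. The hits of the other 4 were HMGA, AT1G48620 for a pair of members, and TRB2, proteins that in Arabidopsis share the globular H1 domain but bind AT-rich or telomeric DNA. These 4 are called H1-named below. In 19 of the 25 components at least 90% of the counts lay on contigs that met the rule. The remaining 6 also held other contigs. With contigs that had a histone gene as Arabidopsis hit added, the share was 69.5% in comp102935_c0 and 86.0% in comp121963_c1. It was at least 99.4% in the others. RSEM divides reads among near-identical copies, so values of single members of a class are uncertain to that extent.

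Most core histone transcripts were reduced 24 h after shoot removal and were back near or above their first level by 72 h. Summed over members, H2A reached 1408 ± 144 normalized counts at 24 h (SD, n = 4), against 4322 ± 956 at 0 h (SD, n = 3), a ratio of 0.326. The ratio was 0.309 for H2B, 0.335 for H4 and 0.590 for H3. The H1 sum was higher, with 6871 ± 515 at 24 h and 5538 ± 391 at 0 h, a ratio of 1.24. Without the H1.3-hit comp112748_c0 the ratio was 0.959, and 4 of the 7 H1 members had a negative log2 fold change (median -0.27). These values include the H1-named members, among them comp132329_c0, which exceeded a mean of 5 only at 0 h. The filter favored its fall. In the H1-hit members alone the ratio was 1.45, and their log2 fold changes were -0.27, 0.81 and 1.74. In H2A, H2B, H3 and H4 all 24 h libraries lay below all libraries of the other time points, and in H1 all lay above those of 0 h. Whether fewer cells expressed histones or each cell held less histone mRNA cannot be told apart in whole buds.

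**Figure D1:**
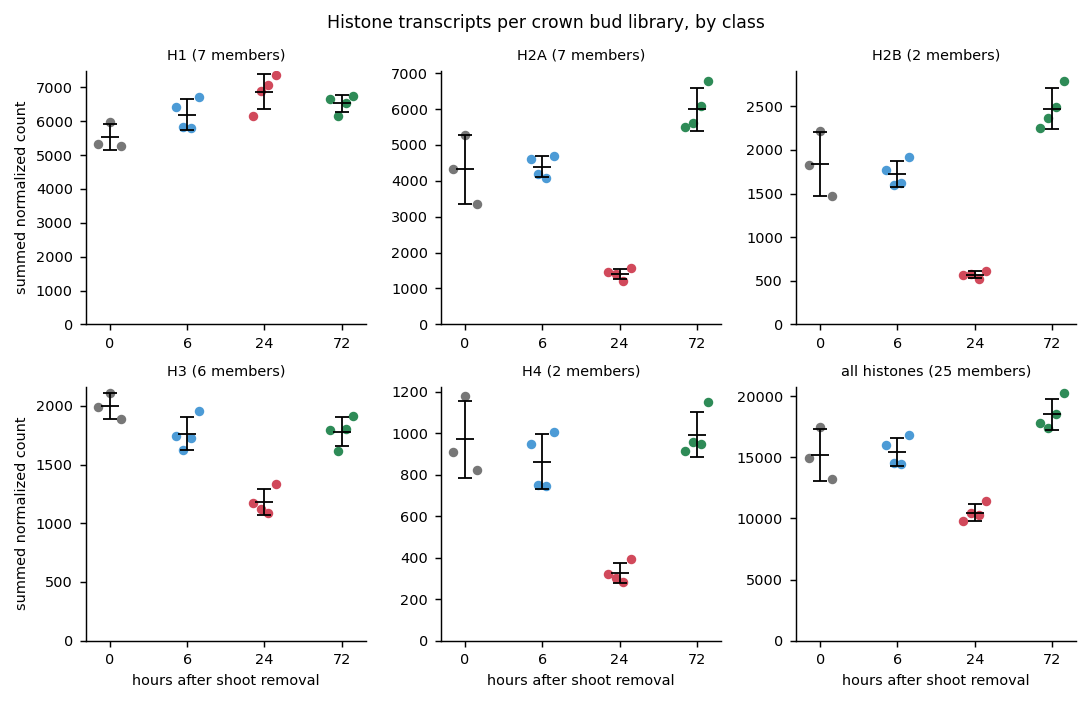
Summed normalized counts of the H1, H2A, H2B, H3, H4 and all 25 histone members (y axis) in each library by hours since shoot removal (x axis). Points are libraries, and bars show the mean and SD over 3 (0 h) or 4 libraries. H2A fell to 1218 to 1562 in the 24 h libraries, against 3368 to 5279 in the 0 h libraries, whereas H1 lay at 6152 to 7359 at 24 h and 5283 to 5987 at 0 h.

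In edgeR's quasi-likelihood test, 20 of the 25 members passed an adjusted p of 0.05 at 24 h against 0 h. Of these, 17 were lower and 3 higher, where 41.8% of all 23245 components tested passed, 21.6% lower and 20.2% higher. All 17 had every 24 h library below every 0 h library, which held for 22.2% of all components, and all 3 higher members had every 24 h library above every 0 h library, which held for 21.2%. Among the 18 core members 15 were lower, with a median log2 fold change of -1.37 beside a median of 0.02 over all components. The 3 core members that did not pass were counted at low levels. They were the H2A members comp102935_c0 (mean over all libraries 20.5) and comp107319_c0 (10.7) and the H3 member comp75885_c0 (9.86). At a mean of 15.6, the H3 member comp83699_c0 did pass.

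Among the members the largest decreases were in H2A. The member with an H2A.X hit, comp85027_c0, stands for the variant that is phosphorylated at DNA breaks. It had 299.7, 438 and 213 normalized counts before shoot removal, 281, 221, 248 and 318 after 6 h, 35.2, 35.7, 22.5 and 34.6 after 24 h and 338, 321, 403 and 449 after 72 h. The 24 h libraries stood far below the others, which overlapped. Its log2 fold change at 24 h was -3.25 ± 0.20 (SE, edgeR adjusted p = 4.66e-11), a mean 9.91-fold lower than at 0 h. The canonical H2A member comp93890_c0 (hit AT1G51060) had 284, 421 and 226 before shoot removal, 286, 268, 246 and 317 after 6 h, 52.8, 28.9, 19.3 and 39.0 after 24 h and 473, 476, 481 and 498 after 72 h. Here too 24 h was the low group, and every 72 h library exceeded every 0 h library. The log2 fold changes were -3.11 ± 0.20 at 24 h (edgeR adjusted p = 7.54e-11) and 0.68 ± 0.17 at 72 h (adjusted p = 0.00991).

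H2A.W is the H2A variant of heterochromatin in Arabidopsis, and 3 members had the H2A.W gene AT5G02560 as best hit. The first of them, comp105365_c0, had 2117, 2567 and 1538 normalized counts before shoot removal, 2218, 2079, 2029.7 and 2228 after 6 h, 429, 408, 312 and 414 after 24 h and 2822, 3007, 3175 and 3676 after 72 h. The 24 h libraries were lowest and the 72 h libraries highest, neither overlapping 0 h. Its log2 fold change was -2.40 ± 0.13 at 24 h (edgeR adjusted p = 6.82e-12) and 0.62 ± 0.13 at 72 h (adjusted p = 0.00194). The second, comp132110_c0, whose protein hit is the H2A entry of leafy spurge itself, fell too, with a log2 fold change of -0.88 ± 0.11 at 24 h (adjusted p = 6.83e-07) and group means of 728 at 24 h and 1344 at 0 h. In that component 53.7% of the counts lay on histone-named contigs, and 99.4% on these and contigs with a histone gene as Arabidopsis hit. The third, comp102935_c0, averaged 20.4 at 24 h and 21.9 at 0 h, a log2 fold change of -0.14 ± 0.24 (adjusted p = 0.673).

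H2A.Z is a variant placed near transcription start sites. The member comp85921_c0 (hit AT1G52740) had 242, 257 and 234 normalized counts before shoot removal, 266, 255, 274 and 279 after 6 h, 226, 189, 178 and 192 after 24 h and 304, 294, 271 and 274 after 72 h. Its 24 h libraries were below those of 0 h by a narrow margin. The log2 fold change was -0.31 ± 0.09 (edgeR adjusted p = 0.00841), and the call was lost when no filter on low counts was used. The other H2A.Z-hit member, comp107319_c0, lay between 3.49 and 8.84 at 24 h and between 3.12 and 18.1 at 0 h, which overlap (log2 fold change -0.63 ± 0.58, adjusted p = 0.412). A pair of H2A.Z-hit components outside the name rule were also called lower. Of these, comp133691_c0 averaged 227 at 24 h and 541 at 0 h (log2 fold change -1.23, adjusted p = 1.04e-09), and comp75107_c0 had a log2 fold change of -0.49 (adjusted p = 0.00789).

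Both H2B members and the H2-named member fell together with H2A. H2B pairs with H2A in the nucleosome. The H2B member comp111308_c0 had 1799.7, 2156 and 1450.1 normalized counts before shoot removal, 1741, 1568, 1597 and 1896 after 6 h, 546, 568, 511 and 594 after 24 h and 2205, 2314, 2439 and 2727 after 72 h. The 24 h libraries were the lowest and the 72 h libraries the highest, without overlap with 0 h. At 24 h the log2 fold change was -1.70 ± 0.11 (edgeR adjusted p = 4.83e-11) and 0.43 ± 0.11 at 72 h (adjusted p = 0.00824). For comp107903_c0, the H2-named member, counts were 564, 681 and 360.1 before shoot removal, 510.2, 519.8, 438 and 508 after 6 h, 124, 113, 98.6 and 145 after 24 h and 708, 719, 753 and 848 after 72 h. This is the same order of time points. The log2 change was -2.15 ± 0.15 at 24 h (adjusted p = 1.82e-10) and 0.52 ± 0.14 at 72 h (adjusted p = 0.0158). The remaining H2B member, comp90197_c0 (hit AT5G02570), averaged 14.2 ± 5.02 at 24 h (SD, n = 4) and 37.8 ± 21.9 at 0 h (SD, n = 3), with a log2 fold change of -1.26 ± 0.30 (adjusted p = 0.00189).

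**Figure D2:**
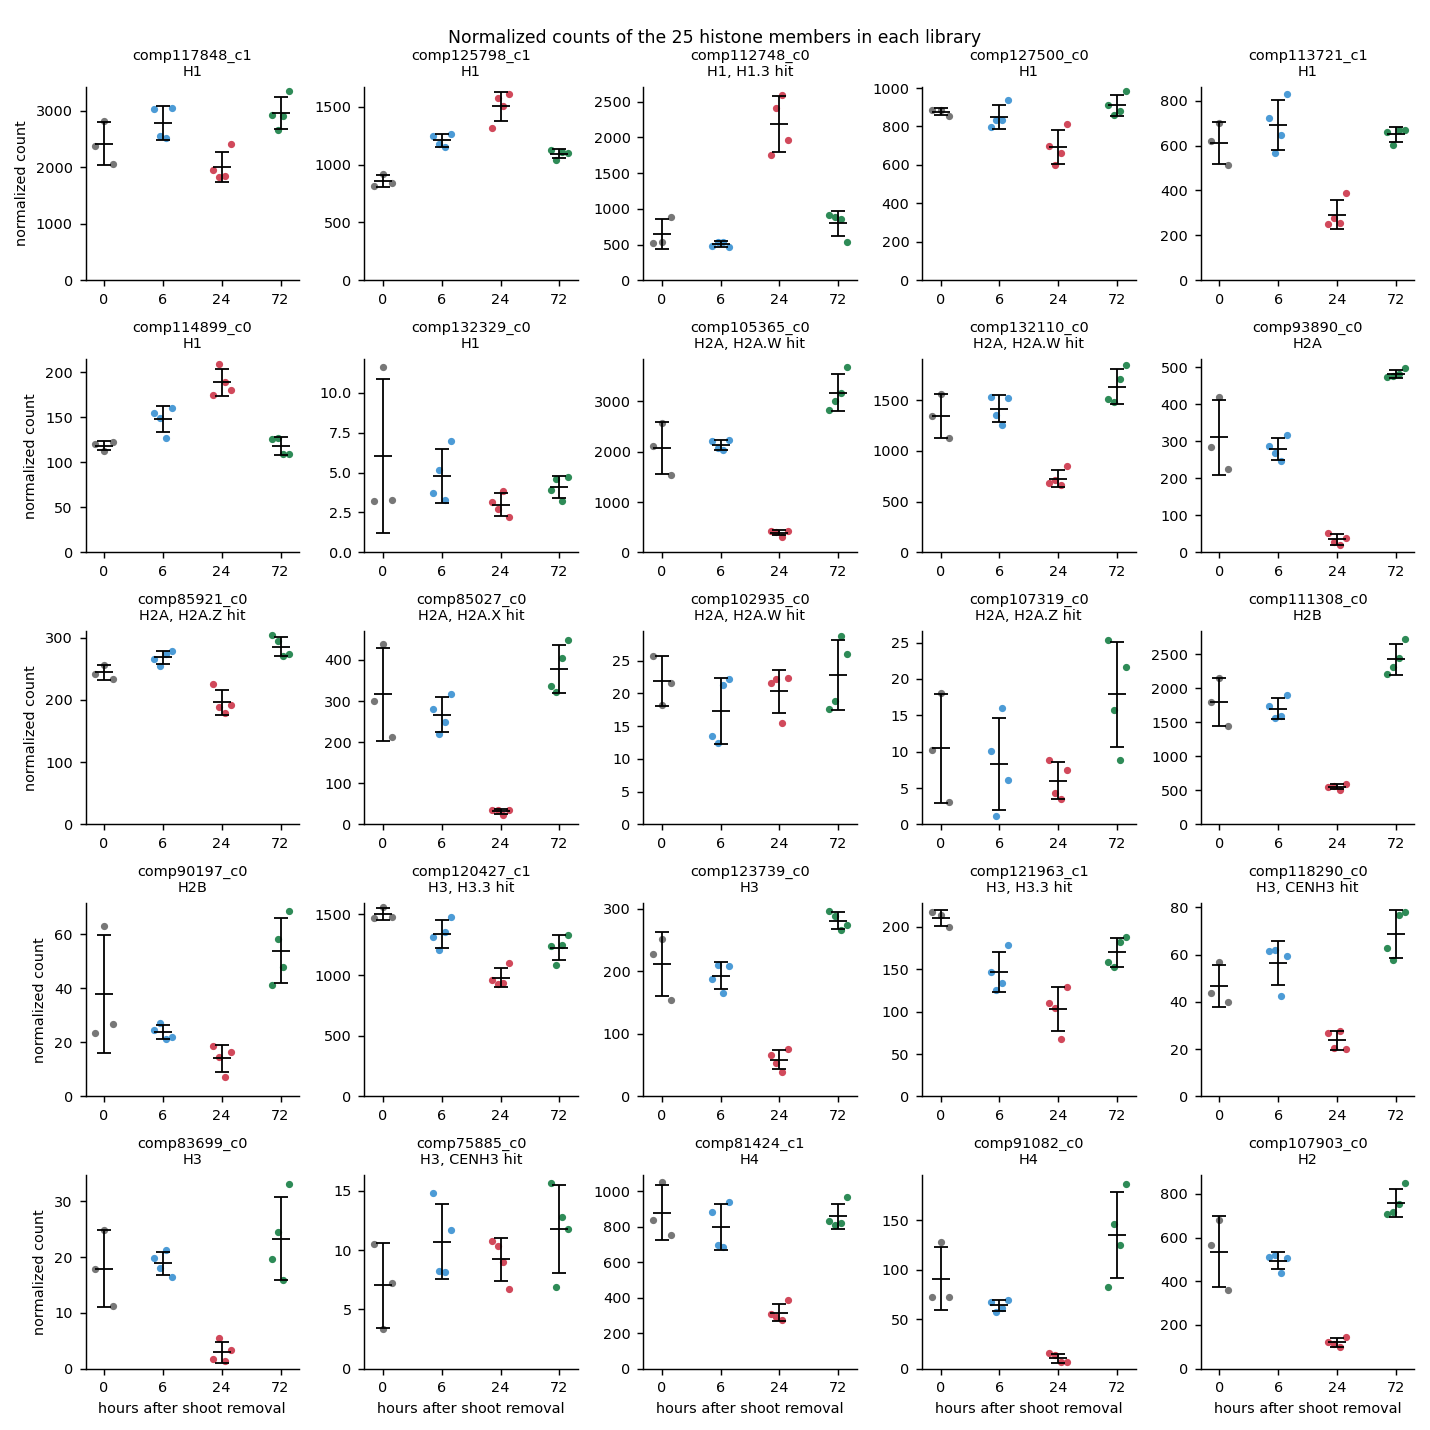
Normalized count (y axis, from 0 and scaled to each panel) of each of the 25 members in every library at 0, 6, 24 and 72 h (x axis). Points are libraries, bars give mean and SD, and each panel names the component, its class and the variant of its best Arabidopsis hit. The H2A.X-hit member comp85027_c0 lies at 22.5 to 35.7 in the 24 h libraries and at 213 to 438 in the 0 h libraries, whereas the H1.3-hit member comp112748_c0 lies at 1752 to 2598 at 24 h and 518 to 886 at 0 h.

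Within H3 both canonical and replacement members of the set fell at 24 h, and the difference between them was not tested. Outside the name rule, the H3.3-hit component comp127491_c0 had more counts than either H3.3-hit member and did not fall. It averaged 3516 at 24 h and 3072 at 0 h, a log2 fold change of 0.20 (edgeR adjusted p = 0.162). The canonical H3 member comp123739_c0 (hit AT5G10390), of the kind laid down behind replication forks, had 228, 252 and 154 normalized counts before shoot removal, 188, 210.5, 165 and 209 after 6 h, 66.9, 53.7, 39.9 and 75.9 after 24 h and 296, 289, 266 and 274 after 72 h. All 24 h libraries were below, and all 72 h libraries above, those of 0 h. On the log2 scale the change was -1.84 ± 0.17 at 24 h (edgeR adjusted p = 8.29e-09) and 0.45 ± 0.15 at 72 h (adjusted p = 0.0593). Only 15.3% of the counts of that component lay on contigs named by the rule, and the others also had histone genes as Arabidopsis hits. A second member with the same hit, comp83699_c0, averaged 2.94 at 24 h and 17.9 at 0 h, a log2 fold change of -2.39 ± 0.40 (adjusted p = 3.64e-05).

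H3.3 replaces canonical H3 in transcribed chromatin independently of replication. The H3.3-hit member comp120427_c1 (AT4G40030) had 1472, 1559.6 and 1477 normalized counts before shoot removal, 1313, 1202, 1358 and 1480.0 after 6 h, 958, 926, 938 and 1098 after 24 h and 1241, 1082, 1245 and 1332 after 72 h. Every library at 24 h and at 72 h was below every 0 h library. Its log2 fold changes were -0.62 ± 0.09 at 24 h (edgeR adjusted p = 3.68e-06) and -0.30 ± 0.09 at 72 h (adjusted p = 0.0232), and the 72 h call was lost without 0 h replicate 2 and without 72 h replicate 2. The other H3.3-hit member, comp121963_c1 (AT5G10980), had 218, 214 and 199 before shoot removal, 146, 126, 133 and 179 after 6 h, 110.1, 105, 67.5 and 129 after 24 h and 158, 152, 182 and 187 after 72 h. It was below 0 h in every later library. The log2 fold change was -0.53 ± 0.15 at 6 h (adjusted p = 0.0175), -1.04 ± 0.15 at 24 h (adjusted p = 5.41e-06) and -0.32 ± 0.15 at 72 h (adjusted p = 0.185).

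CENH3 is the H3 variant that marks centromeres. The member comp118290_c0 had 43.7, 56.7 and 39.9 normalized counts before shoot removal, 61.7, 61.9, 42.4 and 59.6 after 6 h, 26.7, 20.3, 27.7 and 20.1 after 24 h and 62.8, 57.7, 76.5 and 78.0 after 72 h. It was lowest at 24 h and highest at 72 h without overlap with 0 h, while 6 h overlapped 0 h. On the log2 scale the change was -0.92 ± 0.19 at 24 h (edgeR adjusted p = 0.000398) and 0.56 ± 0.18 at 72 h (adjusted p = 0.0432). The 72 h call did not hold with DESeq2, limma or TMM scaling. The second CENH3-hit member, comp75885_c0, lay between 6.69 and 10.8 at 24 h and between 3.31 and 10.5 at 0 h, with a log2 fold change of 0.32 ± 0.36 (adjusted p = 0.503).

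H4, the partner of H3, was represented by a pair of members, and both fell at 24 h. The first, comp81424_c1 (hit AT3G53730), had 837, 1052 and 753 normalized counts before shoot removal, 881, 696, 685 and 939 after 6 h, 308, 290.4, 277 and 385 after 24 h and 834, 812.5, 823 and 966 after 72 h. Only the 24 h libraries stood apart. The log2 change was -1.48 ± 0.12 at 24 h (edgeR adjusted p = 3.13e-09) and -0.03 ± 0.12 at 72 h (adjusted p = 0.915). The second, comp91082_c0 (hit AT5G59970), had 72.1, 128 and 72.7 before shoot removal, 67.9, 56.9, 61.7 and 68.9 after 6 h, 15.3, 13.5, 6.44 and 6.69 after 24 h and 82.5, 146, 126 and 187 after 72 h. The 24 h libraries were again the lowest, and the 6 h libraries also lay below those of 0 h. The log2 change was -2.93 ± 0.27 at 24 h (edgeR adjusted p = 1.37e-08), an 8.65-fold lower mean.

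Of the 3 H1-hit members, 2 rose at 24 h. The H1.3-hit member comp112748_c0 (AT2G18050) has as its Arabidopsis counterpart a linker variant known to be induced by drought and low light. It had 518, 532 and 886 normalized counts before shoot removal, 475, 533, 542 and 471 after 6 h, 1752, 2414, 2598 and 1961 after 24 h and 919.6, 882, 851 and 539 after 72 h. The 24 h libraries were all above the rest, and those of 6 h and 72 h overlapped 0 h. The log2 fold change was 1.74 ± 0.17 at 24 h (edgeR adjusted p = 3.27e-08), a 3.38-fold higher mean, and 0.30 ± 0.17 at 72 h (adjusted p = 0.278). Without this member, and with the H1-named members kept, the H1 sum at 24 h was 0.959 of that at 0 h. Its highest 0 h value was in replicate 3, the library with the lowest histone sum, and without that library it was also called higher at 72 h.

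The H1 member comp125798_c1, whose protein hit is the H1 entry of leafy spurge itself, had 815, 919 and 842 normalized counts before shoot removal, 1245, 1179, 1151 and 1268 after 6 h, 1322, 1576, 1509 and 1609 after 24 h and 1130.4, 1039.7, 1106 and 1104 after 72 h. Every later library was above every 0 h library. The log2 fold change was 0.50 ± 0.08 at 6 h (edgeR adjusted p = 0.000103), 0.81 ± 0.08 at 24 h (adjusted p = 3.23e-08) and 0.35 ± 0.08 at 72 h (adjusted p = 0.00468). It was the only member called higher at all 3 later time points. The third H1-hit member, comp117848_c1 (AT2G30620, H1.2 in Arabidopsis), averaged 2008 ± 272 at 24 h (SD, n = 4) and 2422 ± 384 at 0 h (SD, n = 3). Its groups overlapped, with a log2 fold change of -0.27 ± 0.11 (adjusted p = 0.0576), and the decrease passed the threshold under TMM scaling.

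The 4 H1-named members with other hits moved in both directions at 24 h. The member with an HMGA hit, comp113721_c1, an AT-hook protein in Arabidopsis, averaged 292 at 24 h and 611 at 0 h, a log2 fold change of -1.07 ± 0.13 (edgeR adjusted p = 8.77e-07). The member with a TRB2 hit, comp114899_c0, whose counterpart binds telomeric repeats, averaged 189 at 24 h and 118 at 0 h, a log2 fold change of 0.67 ± 0.11 (adjusted p = 1.95e-05). Of the members with an AT1G48620 hit, comp127500_c0 had a log2 fold change of -0.34 ± 0.09 (adjusted p = 0.0033). The other, comp132329_c0, lay at 2.23 to 3.86 normalized counts at 24 h and 3.24 to 11.6 at 0 h. Its log2 fold change was -0.64 ± 0.48 (adjusted p = 0.319). It exceeded a mean of 5 only at 0 h (6.04, against 2.995 at 24 h), so the filter favored its fall.

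**Figure D3:**
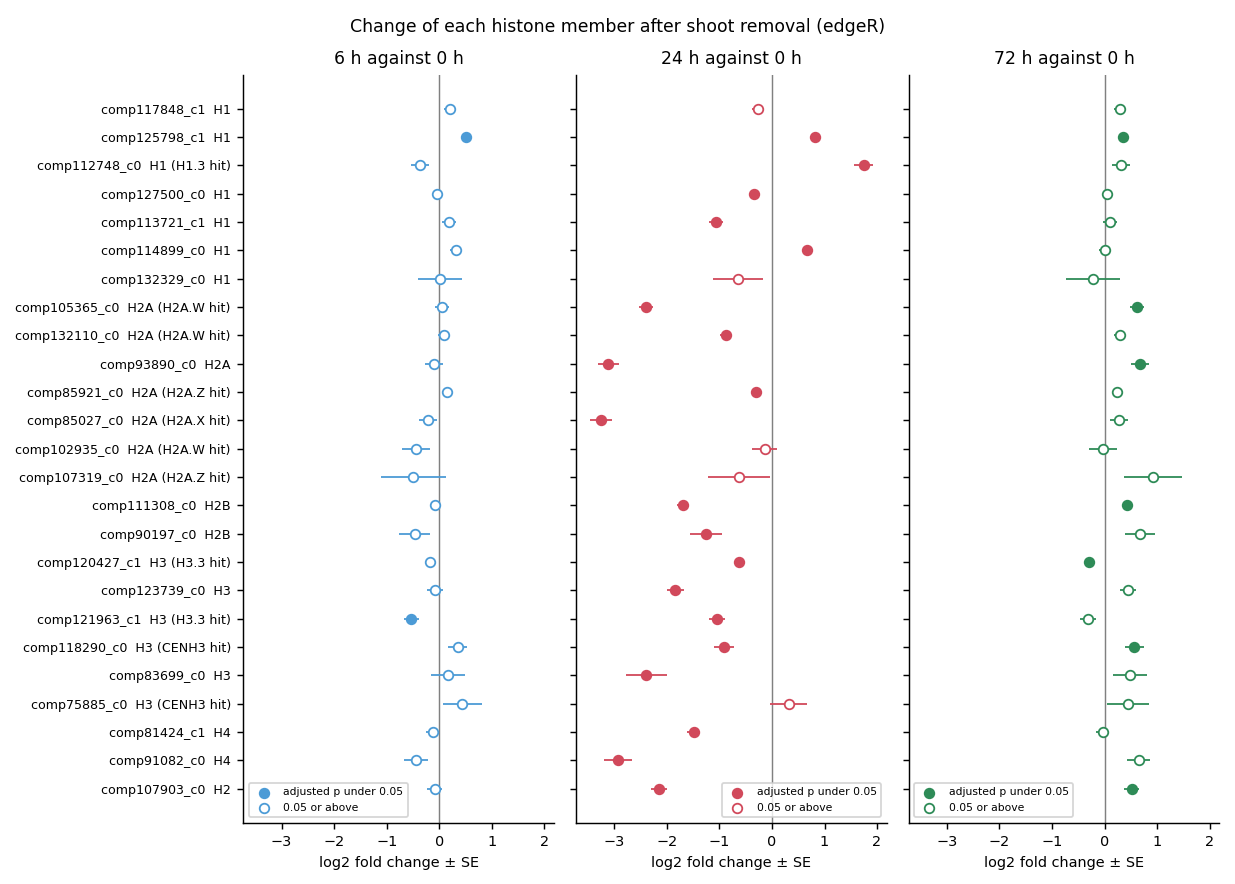
Log2 fold change with its SE (x axis) of each of the 25 members (y axis) at 6 h, 24 h and 72 h against 0 h, from edgeR. Filled points passed an adjusted p of 0.05, and the 3 panels share the same 0 h libraries. At 24 h the members range between -3.25 (comp85027_c0) and 1.74 (comp112748_c0), whereas at 6 h they range between -0.53 and 0.50.

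At 6 h few histones had changed. By edgeR's adjusted p, 2 of the 25 members were called, comp125798_c1 higher and the H3.3-hit comp121963_c1 lower, where 15.3% of all components were, 7.86% higher and 7.43% lower. The call of comp121963_c1 was lost without 0 h replicate 1 and without 6 h replicate 2, which left 1 member. The class sums at 6 h were 1.12 (H1), 1.02 (H2A), 0.937 (H2B), 0.883 (H3) and 0.889 (H4) of those at 0 h. Between 6 h and 24 h the pattern was that of 24 h against 0 h, with 21 members called at 24 h against 6 h, 18 lower and 3 higher, beside 33.4% of all components, 18.0% lower and 15.4% higher. Both comparisons use the same 24 h libraries.

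At 72 h most histones were back near or above their level before shoot removal, with class sums of 1.39 (H2A), 1.35 (H2B), 0.892 (H3), 1.02 (H4) and 1.18 (H1) relative to 0 h. Against 24 h, 22 members were called, 19 higher and 3 lower, where 42.4% of all components were called, 21.9% higher and 20.5% lower. The same 17 members that were lower at 24 h against 0 h were among those higher at 72 h against 24 h. The 3 that were lower at 72 h against 24 h were the H1.3-hit member, comp125798_c1 and the TRB2-hit member, the ones raised at 24 h. Both comparisons use the same 24 h libraries, so their calls are not independent. By group means, 20 members were lowest at 24 h and 17 highest at 72 h. The 20 include comp132329_c0, which exceeded a mean of 5 only at 0 h. Over the 4 time points together 21 members were called, beside 53.9% of all components.

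Against 0 h, 7 members were called at 72 h, 6 higher and 1 lower, where 13.2% of all components were called, 7.05% higher and 6.1% lower. The 6 were the H1 member comp125798_c1, the H2A members comp105365_c0 and comp93890_c0, the H2B member comp111308_c0, the H2-named comp107903_c0 and the CENH3-hit comp118290_c0. The lower one was the H3.3-hit comp120427_c1. This count rested on the 0 h libraries. It was 12 without 0 h replicate 2, the library with the highest histone sum, and 4 without 0 h replicate 3, the lowest, where comp93890_c0, comp111308_c0, comp107903_c0 and comp118290_c0 were no longer called and the H1.3-hit comp112748_c0 was. The call of comp93890_c0 was also lost with DESeq2, and that of comp107903_c0 without 72 h replicate 4. The histone sum at 72 h was 1.22 of that at 0 h, and 1.32 without replicate 2. The 25 members took 0.419 to 0.464% of the counts of the 72 h libraries and 0.303 to 0.410% of those of 0 h. Histone contigs outside the name rule are not in these percentages. Against 6 h, 10 members were called at 72 h, 9 higher and 1 lower, where 18.6% of all components were, 10.1% higher and 8.51% lower.

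The make-up of the histone counts was then taken within each library, which does not depend on the scaling between libraries. At 24 h the 3 H1-hit members took 58.0 to 65.0% of the counts of these members plus the 18 core members, against 27.2 to 32.4% at 0 h. The H1.3-hit member took 32.8 to 43.6% of the H1-hit counts at 24 h and 12.4 to 23.4% at 0 h. Both shares were higher in every 24 h library than in any 0 h library. Canonical H3-hit members took 3.94 to 6.06% of the counts of canonical plus H3.3-hit members at 24 h, against 8.96 to 13.5% at 0 h. H2A.Z-hit members took 12.8 to 16.1% of H2A counts at 24 h, against 5.21 to 7.03% at 0 h. In each of the 4 shares the 24 h libraries did not overlap those of 0 h. At 72 h the canonical share of H3 was 16.5 to 20.3%, above all 0 h libraries. The size of the shares depended on which components were counted. With the 13 further tested green-plant components that have a histone gene as Arabidopsis hit, a set chosen after seeing the data, the H1-hit share was 36.8 to 44.5% at 24 h, against 16.4 to 20.01% at 0 h. The canonical share of H3 was then 5.11 to 7.06% at 24 h, against 25.1 to 34.8% at 0 h, and the H2A.Z share of H2A 21.7 to 27.7% at 24 h, against 14.3 to 17.1% at 0 h. The 24 h and 0 h libraries stayed apart in these 3 shares too. All shares were chosen with the member values known and carry no test, and they are shares of counts, not of molecules, since transcript length was not corrected.

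**Figure D4:**
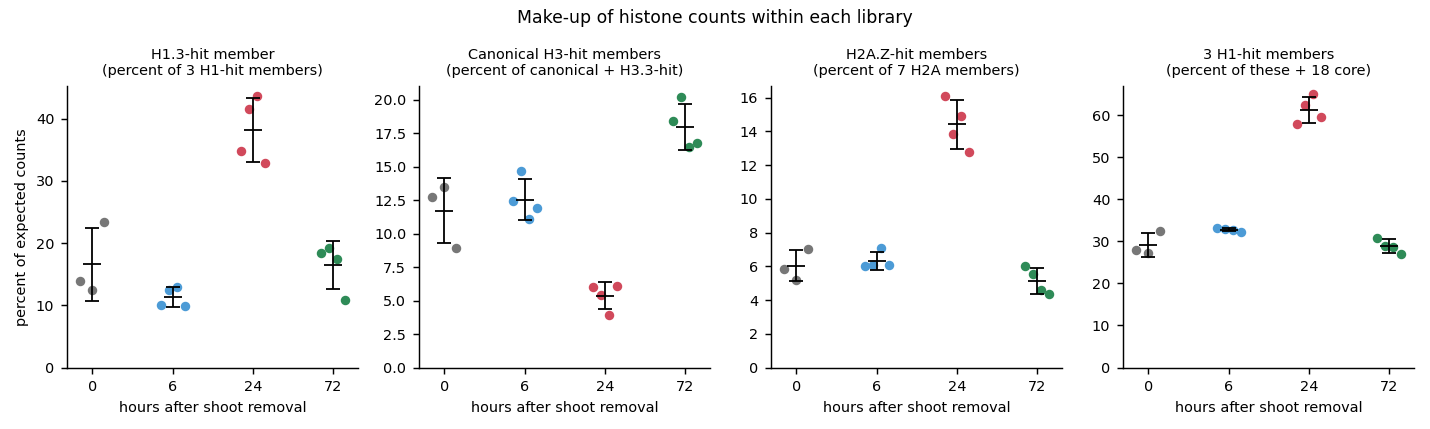
Percent of expected counts (y axis) that fell on the H1.3-hit member among H1-hit members, on canonical H3-hit members among canonical and H3.3-hit members, on H2A.Z-hit members among H2A members, and on H1-hit members among these and the core members, in each library at 0, 6, 24 and 72 h (x axis). Points are libraries and bars give mean and SD. In the last panel the 24 h libraries lie at 58.0 to 65.0% and the 0 h libraries at 27.2 to 32.4%.

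Genes that work with histones were counted by their best Arabidopsis hits. Of 14 chaperone genes, 12 were found in 15 tested components, and 9 of these were lower at 24 h against 0 h by edgeR's adjusted p, beside 21.6% of all components, with a median log2 fold change of -0.42. The NAP1;2-hit comp102829_c0, among the 9, exceeded a mean of 5 only at 0 h, so the filter favored its fall. It averaged 5.20 at 0 h and 1.365 at 24 h. The CAF-1 subunits FAS1 and FAS2, which load new H3 and H4 at replication forks, had log2 fold changes of -0.93 (comp130334_c0) and -1.79 (comp112998_c0). HIRA (comp124035_c0), which loads H3.3, had -0.26 and was also called. The third CAF-1 subunit, MSI1 (comp107492_c0), which other complexes share, had -0.04 and was not called (adjusted p = 0.674). Of the FACT subunits, SSRP1 (comp111221_c0) had -0.76 and was called, while SPT16 (comp119489_c0) had 0.05 and was not. ASF1A (comp108456_c0), which hands H3 and H4 to both loaders, was -0.71 at 24 h and 0.63 at 72 h, both called.

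The DNA replication list fell at 24 h along with the core histones. Of its 12 genes, 11 were found in 18 tested components, with 15 lower and 2 higher at 24 h, beside 21.6% and 20.2% of all components, and a median log2 fold change of -1.81. Among the lower ones, the RNR1-hit comp131371_c0 exceeded a mean of 5 only at 0 h and 6 h. TSO2, a ribonucleotide reductase subunit that makes deoxynucleotides (comp127087_c0), had -2.57, the sliding clamp PCNA2 (comp118652_c0) -1.86 and the helicase subunit MCM4 (comp130132_c0) -2.07. The components with higher counts were a second MCM2-hit and a second MCM6-hit component (comp137427_c0, comp97610_c0). Here 10 components were already lower at 6 h, beside 7.43% of all components, but only 4 without 0 h replicate 1, and 6 without 0 h replicate 2 or 6 h replicate 1.

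Of the 8 genes of the mitosis list, 5 were found in 6 tested components. At 24 h 2 of the 6 were called lower, beside 21.6% of all components. The CDKB1;2-hit and CDKB2;2-hit components, kinases of the G2 phase and mitosis, fell by 1.36 and 1.42 on the log2 scale. The cyclin CYCB1;2 (comp112579_c0) had 0.03 and the cell plate syntaxin KNOLLE (comp122314_c0) -0.29, neither called. At 72 h all 6 components were called higher than at 0 h, beside 7.05% of all components, with a median log2 fold change of 1.38, CYCB1;2 at 1.54 and KNOLLE at 1.48, and 5 or 6 were called whichever library was left out. The 3 comparisons share the 0 h libraries.

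**Figure D5:**
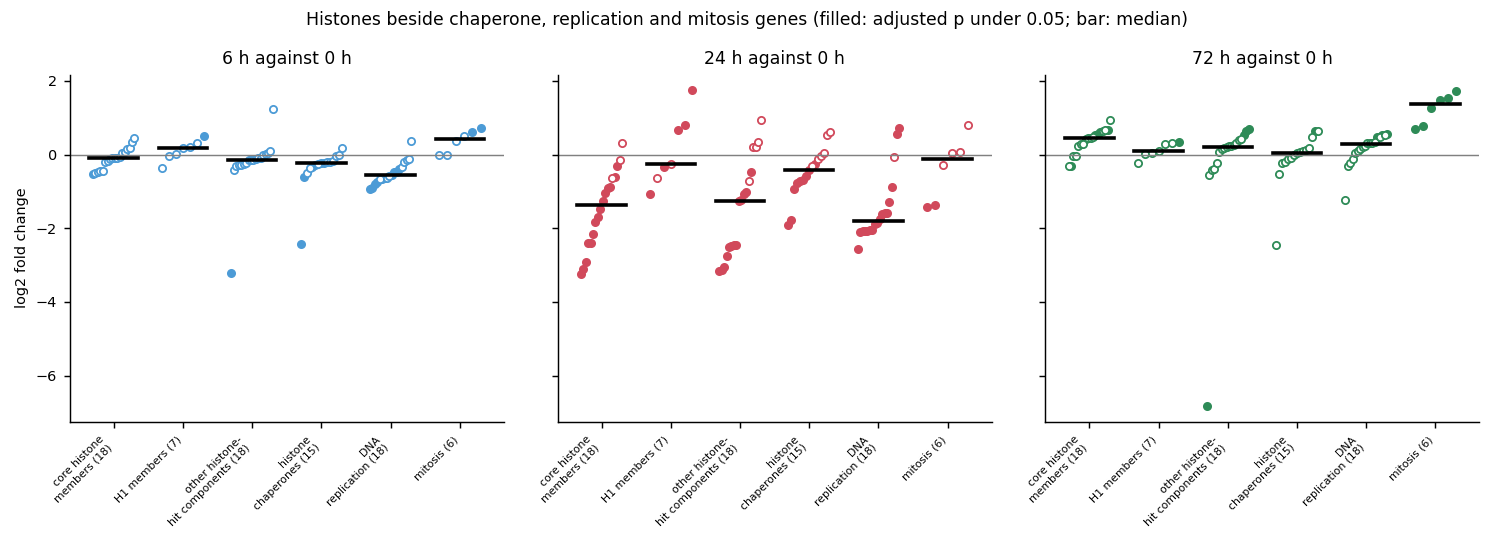
Log2 fold change from edgeR (y axis) at 6 h, 24 h and 72 h against 0 h for the 18 core histone members, 7 H1 members, 18 further components with a histone gene as Arabidopsis hit, and the chaperone, replication and mitosis lists (x axis, number of components in parentheses). Filled points passed an adjusted p of 0.05 and bars are medians. At 24 h the medians are -1.37 for the core members, -0.27 for H1, -0.42 for chaperones, -1.81 for replication, -0.13 for mitosis and -1.25 for the further histone-hit components, and the lowest point at 72 h is an H4-hit component with no count in any 72 h library, whose fitted value is no estimate of size.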

How the data were processed

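RNA-seq was run on 15 leafy spurge crown bud libraries. The authors isolated poly(A) RNA, made strand-specific libraries, trimmed reads with Sickle, assembled contigs with Trinity, annotated them with BLASTX and estimated counts with RSEM, whose version is not given in the sources used here. The expected counts per contig and component that the authors deposited were used, not whole because RSEM divides ambiguous fragments. The deposited table also holds posterior probabilities of differential expression from EBSeq, which were not used.

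Histone contigs were summed per component, and these sums replaced the component counts of the 61 components found by name. Size factors were medians of ratios over 21790 components above 0 in every library. Components with a mean normalized count above 5 at any time point (23245) were rounded to whole counts and tested with edgeR 4.0.16 (R 4.3.3). Its quasi-likelihood model took time point as group over 15 libraries, and p-values were adjusted by Benjamini-Hochberg over all components tested. Each SE of a log2 fold change was derived as its absolute value divided by the square root of the F statistic of its test. The procedure was also run on simulated counts. Few components were changed there, unlike at 24 h, and no result given here rests on that run. Class sums and shares carry no test. Alternatives were TMM scaling, DESeq2 1.42.0, limma 3.58.1 on log2(normalized count + 1), other filters, whole components, a replicate block, only the time points compared, a threshold of 0.01 and each library left out. Tables and figures used Python 3.11.15, pandas 2.3.3, numpy 2.4.6 and matplotlib 3.10.9.

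Members were named as the 3 with the highest mean count per class, the 3 called members with the highest and lowest changes per time point, and all with a variant hit (H2A.W, H2A.X, H2A.Z, H3.3, CENH3, H1.3). Those outside the rule (comp83699_c0, comp127500_c0, comp113721_c1, comp132329_c0) were added after their values were seen. Members and lists were chosen with earlier results of these data known. No sequence of the contigs was used here.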

Additional observations from a re-analysis of the deposited data

Results flagged for a closer look

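Of 93 groups of 4 libraries (each member at 6 h, 24 h and 72 h, and the class sums), 5 held a library far from the other 3 by Dixon's test at 95%, where chance gives about 1 in 20 groups. The H2A.X-hit member comp85027_c0 had 22.5 normalized counts in 24 h replicate 3, against 34.6 to 35.7 in the others. The H2A.W-hit member comp102935_c0 had 15.4 in the same library, against 21.5 to 22.3. In 6 h replicate 3, the CENH3-hit member comp118290_c0 had 42.4, against 59.6 to 61.9, and the H2-named member comp107903_c0 had 438, against 508 to 519.8. The H4 member comp81424_c1 had 966 in 72 h replicate 4, against 812.5 to 834. That library was the shallowest of all, with 1847115 expected counts, and the part of depth was not tested.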

How the results depend on the processing

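The counts at 24 h against 0 h were 20 or 21 members under every alternative and every library left out. At 72 h the count of 7 members was 4 at an adjusted p under 0.01 and 11 with no filter, and at 6 h the count of 2 was 1 under 0.01. With each library left out in turn these counts were 1 to 3 at 6 h and 4 to 12 at 72 h. Of the lists, 6 of 15 chaperone components were called at 6 h, each lower, beside 7.43% of all components. They included comp102829_c0, which passed the filter only through 0 h. The count was 3 with no filter and 2 to 6 with a library left out. At 72 h 1 was called, higher, beside 7.05% of all components, and 1 to 2 with a library left out. Of 18 replication components, 10 were called lower at 6 h and 3 higher at 72 h, beside 7.43% and 7.05% of all components. Replication numbered 4 to 12 at 6 h and 0 to 4 at 72 h with a library left out, and 1 at 72 h with DESeq2 and with limma. The 0 came in edgeR without 0 h replicate 3 and without 72 h replicate 4, where 3 and 6 components had an unadjusted p under 0.05. Of 6 mitosis components, 2 were called at 6 h, each higher, beside 7.86% of all components. Mitosis at 6 h numbered 1 with DESeq2 and with limma, and 1 to 3 with a library left out.

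Ratios of class sums to 0 h changed with the contigs counted, in settings chosen after seeing the data apart from the whole components. H1 was 1.45 at 24 h and 1.24 at 72 h both for contigs by Arabidopsis histone hit and for H1-hit members alone. With the H1-named members kept, it was 0.959 at 24 h without the H1.3-hit member. With whole components the ratios were 0.372 (H2A, 24 h), 0.439 (H3, 24 h), 1.12 (H3, 72 h) and 0.625 (all, 24 h). By Arabidopsis hit they were 0.362 (H2A, 24 h), 0.969 (H3, 6 h), 1.05 (H3, 72 h) and 0.600 (all, 24 h). With a library left out the ranges were 1.15 to 1.23 (H1, 72 h), 0.916 to 1.14, 0.293 to 0.366 and 1.25 to 1.56 (H2A at 6, 24 and 72 h), 0.853 to 1.05, 0.282 to 0.345 and 1.22 to 1.5 (H2B), 0.952 to 1.15 (H4, 72 h) and 0.953 to 1.10, 0.646 to 0.744 and 1.14 to 1.32 (all histones). The cause was not tested beyond the contigs or libraries left out.

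Of named members, 24 values changed sign, none of them called in the fit reported. With whole components they were 0.047 (comp102935_c0, 24 h), 0.25 (comp102935_c0, 72 h), -0.055 (comp132110_c0, 6 h) and -0.0022 (comp114899_c0, 72 h). With limma they were 0.040 (comp102935_c0, 72 h) and -0.0081 (comp114899_c0, 72 h), and with TMM -0.017 (comp114899_c0, 72 h). With a library left out, log2 fold changes ranged over both signs at 6 h, -0.13 to 0.23 (comp105365_c0), -1.06 to 0.17 (comp107319_c0), -0.32 to 0.11 (comp107903_c0), -0.22 to 0.066 (comp111308_c0), -0.29 to 0.037 (comp123739_c0), -0.030 to 0.20 (comp132110_c0), -0.23 to 0.0086 (comp81424_c1), -0.45 to 0.053 (comp85027_c0) and -0.30 to 0.14 (comp93890_c0), and at 72 h, -0.16 to 0.12 (comp102935_c0), -0.052 to 0.038 (comp114899_c0) and -0.14 to 0.11 (comp81424_c1).

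Whether replicate numbers pair the samples was not settled, and the main fit treated them as unpaired. Deviations of same-numbered libraries had r over 0.1 in 1 of 21 pairs, but 12 of 15 libraries correlated best with their own number. With the replicate block, 3 (6 h), 21 (24 h) and 9 (72 h) members were called, and comp114899_c0 had -0.014 at 72 h. Among members under about 10 normalized counts, the SE of the log2 fold change at 24 h was 0.48 (comp132329_c0), 0.58 (comp107319_c0) and 0.36 (comp75885_c0).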

Other observations

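The rule left out histone contigs whose hit was named otherwise ("histone 3", or a predicted protein) or did not come from a green plant. By best Arabidopsis hit there were 321 histone contigs, of which 218 in 136 components lay outside the rule with 44.5% of the counts. This group was chosen after seeing the data. Of its 18 tested components, 13 were called at 24 h against 0 h by edgeR, each of them lower, beside 21.6% of all components, with a median log2 fold change of -1.25. Among the lower ones, the H4-hit comp92814_c0 exceeded a mean of 5 only at 0 h (12.2, against 1.46 at 24 h). The protein hit was from a green plant in 13 of the 18 and from another taxon, or with none given, in 5, and 10 and 3 of these were among the lower ones. The canonical H3-hit component comp108332_c0 averaged 236 normalized counts at 24 h and 1945 at 0 h (log2 fold change -3.05), and of the H2A.X-hit components comp103329_c0 had -3.14 and comp100944_c1, with 259 at 24 h and 626 at 0 h, had -1.27. H4-hit components also fell, comp116334_c0 by 2.47 and comp96224_c0 by 1.02 on the log2 scale. The H3.3-hit component comp127491_c0 averaged 3516 at 24 h and 3072 at 0 h, a log2 fold change of 0.20 that did not pass the threshold (edgeR adjusted p = 0.162).

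Of the shoot meristem markers, 3 of 10 components were called at 24 h against 0 h, each higher, beside 20.2% of all components, with a median log2 fold change of 0.18. STM (comp108384_c0) and KNAT1 (comp126867_c1), homeobox genes of the meristem, had -0.24 and -0.05, neither called. Contigs with histone names outside green plants, most of them of animal, fungal or protist hits, summed to 30.1 to 61.3 normalized counts per library, against 9793 to 20260 for the 25 members.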
